A study of Vitis vinifera with 15 samples.

Results

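The genes described here were expressed more strongly in ripening skins of 3 grape cultivars with a muscat aroma than in skins of 2 cultivars without it. A gene was included when it reached an expression of at least 1 FPKM (fragments per kilobase of exon, scaled to the number of mapped fragments) in at least 3 of the 15 libraries, and its lowest value in the 9 muscat libraries was above its highest value in the 6 other libraries. Of 31924 genes in the table, 18238 passed the first criterion and 158 of these are members. The members were thus chosen by the very difference between muscat and other cultivars, so that difference is described in FPKM below and was not tested. All 158 passed the filter on low values, which is part of the selection. For 12 of them it was no longer passed when the libraries of at least 1 of the muscat cultivars were set aside.

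Skin of berries at the ripening stage was sequenced in 3 libraries per cultivar. Shine muscat, Midknight Beauty (also spelled Midnight Beauty) and Centennial Seedless have the muscat aroma, Summer Black has a strawberry aroma, and Victoria has a neutral flavour. Midknight Beauty and Summer Black have dark red skin, and the others are green. No treatment was applied and all vines stood in a single vineyard. Each cultivar is 1 genotype, and the strawberry and neutral types are 1 cultivar each, so aroma type and cultivar cannot be told apart outside the muscat group. The replicates of a cultivar were bunches from 3 vines each, according to the methods, and p-values measure the spread between such libraries. Shine muscat replicate 1 and Summer Black replicate 3 stood apart by a lower share of mapped reads in the sequencing statistics of the study. The number of members and the numbers called between cultivars are also given without them, and the other counts are not.

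Muscat aroma rests largely on free monoterpene alcohols such as linalool, geraniol and nerol, which accumulate mostly in the skin. Their precursors come from the plastidial methylerythritol phosphate (MEP) pathway, whose entry enzyme is deoxyxylulose phosphate synthase (DXS), and terpene synthases (TPS) turn these precursors into volatile terpenes. Glycosyltransferases bind part of the terpenes to sugars, and β-glucosidases can release them again. Alleles of a DXS gene on chromosome 5 are a known determinant of muscat flavour in grape. Neither the deposited table nor the reference gene list pairs the identifiers of the members with a name, and 0 identifiers were found in that list. None of the members is named in the study, so they are given by identifier and without a function, and the skin could not be checked against marker genes. Identifiers of the form VIT_12s0034g00660 hold the chromosome, the scaffold and the order of the gene on it.

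The members ranged from barely detected to very abundant transcripts. Their mean over the 9 muscat libraries lay between 0.813 and 1391 FPKM, with a median of 11.7 against 9.72 over all 18238 genes. The mean was under 1 FPKM in 5 members, from 1 to 10 in 69, from 10 to 100 in 68 and above 100 in 16. Newly assembled genes made up 8 of the 158 (5.06%) and 745 of all genes that passed the filter (4.08%). The difference between the muscat and the other mean on the log2(FPKM + 1) scale ran from 0.25 to 3.02 with a median of 0.93, and it was at least 1 in 70 members and at least 2 in 16. As the heatmap of the members shows, most of the list consists of moderate differences, with a small number of genes near the on and off pattern.

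**Figure D1:**
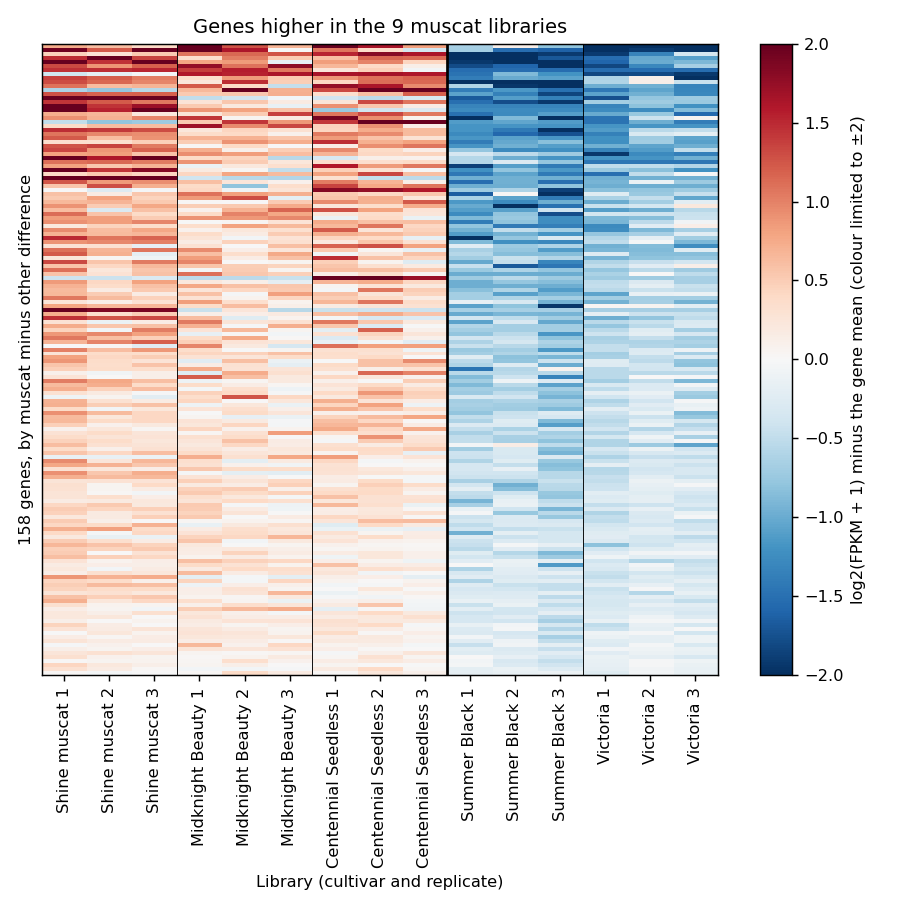
Expression of the 158 members in the 15 libraries. Each row is a gene, each column a library, and colour gives log2(FPKM + 1) minus the mean of the gene. The 9 muscat columns on the left lie above the 6 Summer Black and Victoria columns in every row because the members were chosen so, while the size of the step falls from 3.02 at the top to 0.25 at the bottom.

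The rule leaves narrow gaps in many members. The lowest muscat library was less than 1.1 times the highest other library in 77 members and less than 1.2 times in 95, and it was at least 2 times as high in 11 of the members that were detected in Summer Black or Victoria. Just inside the limit, VIT_05s0020g01530 had 22.12 FPKM in its lowest muscat library, Shine muscat replicate 2, and 22.08 in Victoria replicate 2. VIT_00s0483g00030 and VIT_12s0034g00910 were the next closest, with 35.32 against 35.27 FPKM and 0.848 against 0.846 FPKM. Just outside, VIT_00s0258g00040 had 1.5637 FPKM in Midknight Beauty replicate 1 and 1.5643 in Victoria replicate 2. VIT_07s0104g00510 (19.02 against 19.04 FPKM) and VIT_03s0038g00670 (21.67 against 21.74 FPKM) followed, again with Victoria replicate 2 as the highest other library. The highest other library was Victoria replicate 2 in 50 members and Victoria replicate 3 in 38, and the lowest muscat library was Midknight Beauty replicate 3 in 34. Membership therefore depends on single libraries. Without Victoria replicate 3, 270 genes met the rule, and 186 met it without Shine muscat replicate 1 and Summer Black replicate 3. Leaving out a library can only relax the comparison of lowest with highest values, so these numbers could fall only through the filter. It also depends on the scaling between libraries, since 110 of the 158 met it under both median-of-ratios scaling and quantile normalization, and 48 were lost under at least 1 of them. Over all tested genes the share of members was 0.866%, and the mirrored rule (all muscat libraries below all others) held for 108 genes or 0.592%.

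In all 6 Summer Black and Victoria libraries, 5 members were listed at 0 FPKM, which does not imply a wide gap to the muscat libraries. VIT_00s1203g00010 had 6.90, 6.99 and 7.23 FPKM in Shine muscat, 6.51, 7.56 and 4.95 in Midknight Beauty, and 2.41, 2.99 and 1.78 in Centennial Seedless. Shine muscat and Midknight Beauty overlapped, and Centennial Seedless was lower than both. VIT_07s0031g01110 was highest in Midknight Beauty with 6.29, 3.37 and 4.70 FPKM, followed by 1.96, 2.46 and 2.48 in Shine muscat and 2.09, 3.26 and 1.47 in Centennial Seedless, the latter pair overlapping. VIT_00s0294g00080 stayed low throughout, at 0.220 to 1.42 FPKM in Midknight Beauty, 0.540 to 2.19 in Centennial Seedless and 0.375 to 0.568 in Shine muscat. It no longer passed the filter when either Midknight Beauty or Centennial Seedless was set aside. The remaining genes, VIT_16s0039g01220 and VIT_12s0142g00690, were abundant in Shine muscat alone and are described with the differences between muscat cultivars. Read counts are not given, so a value listed at 0 has no upper limit here and no fold change was computed for these genes. A 0 need not mean an absent transcript. VIT_16s0039g00900 was listed at 0 in Victoria replicate 3 and at 14.2 and 24.2 FPKM in Victoria replicates 1 and 2. All 3 Victoria libraries were at 0 in 9 members, and all 3 Summer Black libraries in 11. Both counts include the 5 members at 0 in all 6 libraries.

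**Figure D2:**
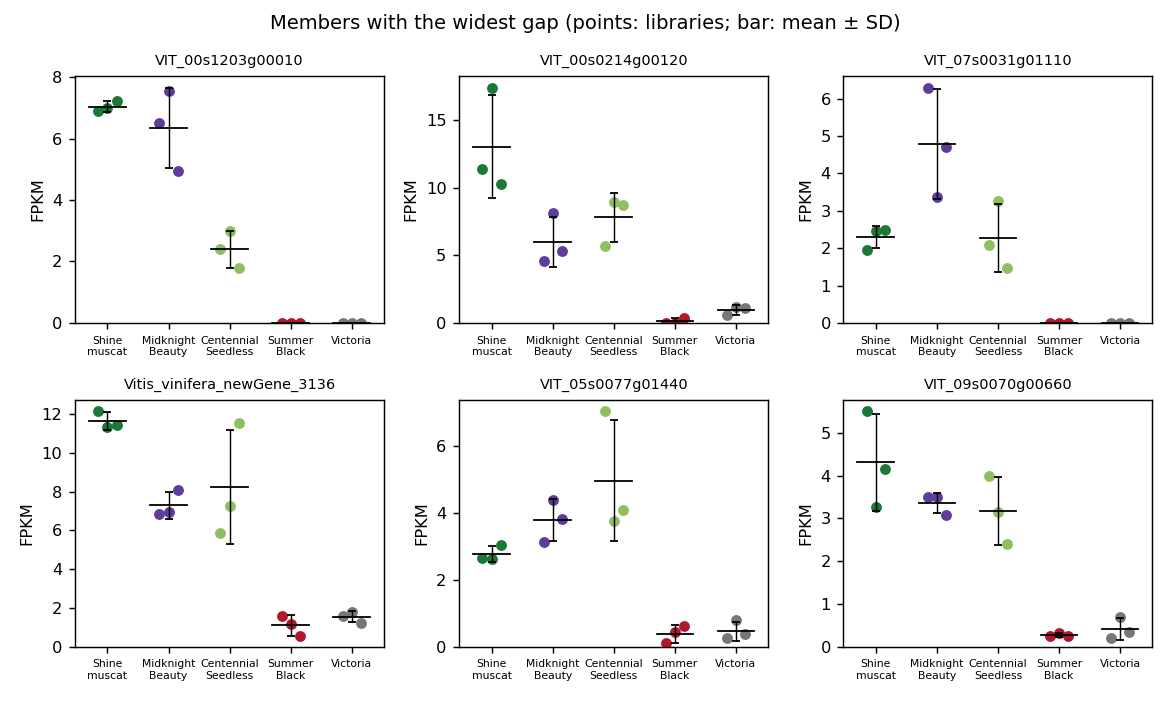
FPKM of the 6 members with the widest gap between the lowest muscat and the highest other library on the log2(FPKM + 1) scale. Points are libraries, horizontal bars are means and vertical bars are SD (n = 3). In VIT_00s1203g00010 and VIT_07s0031g01110 the 6 Summer Black and Victoria libraries lie at 0.

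Among members that were detected outside the muscat group, VIT_00s0214g00120 had the widest gap. Its values were 11.4, 17.4 and 10.3 FPKM in Shine muscat, 4.61, 8.09 and 5.30 in Midknight Beauty and 5.72, 8.95 and 8.75 in Centennial Seedless. In Summer Black it was listed at 0, 0 and 0.367 FPKM and in Victoria at 0.551, 1.2 and 1.1, so that the lowest muscat library was 3.83 times the highest other one. The newly assembled Vitis_vinifera_newGene_3136 reached 11.7 ± 0.456 FPKM (SD, n = 3) in Shine muscat, 7.30 ± 0.681 in Midknight Beauty and 8.23 ± 2.96 in Centennial Seedless. Summer Black (1.09 ± 0.535) and Victoria (1.55 ± 0.280) overlapped at a low level for this gene. VIT_05s0077g01440 (2.62 to 7.04 FPKM in muscat libraries, at most 0.785 elsewhere) and VIT_09s0070g00660 (2.40 to 5.51 against at most 0.691) showed the same step at lower levels. VIT_10s0003g02490 spanned 4.45 to 11.2 FPKM in muscat libraries and 0.607 to 1.81 in the others. For VIT_12s0035g02120 the muscat libraries held 3.55 to 13.4 FPKM, and the highest other value, 1.65 in Victoria replicate 3, stood well above the 0.190 of Victoria replicate 1.

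The neighbouring genes VIT_13s0158g00190 and VIT_13s0158g00200 were both among the 10 widest gaps. The former had 9.32, 8.01 and 6.97 FPKM in Shine muscat, 3.65, 4.59 and 3.32 in Midknight Beauty, 3.53, 8.54 and 7.07 in Centennial Seedless, 0.342, 0.117 and 0.00831 in Summer Black and 1.39, 1.34 and 1.30 in Victoria. The latter followed with 4.38 ± 0.579, 1.55 ± 0.401 and 2.92 ± 1.2 FPKM in the same muscat cultivars and at most 0.182 FPKM elsewhere. In both genes Centennial Seedless replicate 1 was well below replicates 2 and 3. Reads of adjacent similar genes can be shared in counting, and whether these genes are similar was not tested.

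The most abundant members differed less between the groups. VIT_14s0060g00480 had 1749, 1612 and 1602 FPKM in Shine muscat, 1307, 1550 and 1100 in Midknight Beauty and 1129, 1217 and 1252 in Centennial Seedless. Victoria was close behind with 1038, 1057 and 871 FPKM, whereas Summer Black had 480, 576 and 262. The gap to Victoria was therefore a factor of 1.04, and the low group was Summer Black. VIT_07s0141g00520 separated the groups more evenly, with 223 to 368 FPKM in muscat libraries, 155 ± 16.5 in Summer Black and 155 ± 11.1 in Victoria. VIT_07s0031g00920 was at 262 ± 30.5 FPKM in Shine muscat, 176 ± 13.9 in Midknight Beauty, 248 ± 94.2 in Centennial Seedless, 93.3 ± 15 in Summer Black and 79.7 ± 15.5 in Victoria. VIT_15s0046g03570 stood at 161 ± 8.43, 98.8 ± 11.3 and 149 ± 21.4 FPKM in these muscat cultivars, with 27.4 ± 4.75 in Summer Black and 55.2 ± 21.1 in Victoria. The other 6 of the 10 most abundant members (VIT_05s0077g02070, VIT_05s0020g02540, VIT_05s0020g04790, VIT_14s0083g00970, VIT_03s0017g01980 and VIT_08s0040g01410) had differences of 0.31 to 0.69 on the log2 scale, and in each of them the highest other library was within 1.11 times of the lowest muscat one. VIT_05s0077g02070, VIT_05s0020g04790 and VIT_03s0017g01980 did not meet the rule under at least 1 of the other scalings. In bulk skin RNA, fewer cells of a type and less RNA per cell cannot be told apart.

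Set against single cultivars, the members stood further from Summer Black than from Victoria. The median difference to Summer Black on the log2(FPKM + 1) scale was 1.08 in Shine muscat, 0.91 in Midknight Beauty and 0.99 in Centennial Seedless. To Victoria it was 0.91, 0.75 and 0.71. These values share the control and the muscat libraries and are given as a description. A difference of at least 1 was found in 88, 66 and 78 members against Summer Black and in 68, 47 and 56 against Victoria. These medians and counts were not computed over all genes. Whether the larger distance from Summer Black is particular to the members was therefore not tested.

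The selection did not contrast Summer Black with Victoria, so this comparison was tested, asking whether the members differ between the cultivars without muscat aroma. The rule still kept all 6 of their libraries below the lowest muscat library, which can limit differences between them. The shares of members beside those of all genes are therefore a description. The fit used limma on log2(FPKM + 1) of all 18238 genes and 15 libraries, with Benjamini-Hochberg adjustment, and genes were called when the fold change on the log2 scale reached 1 or more, up or down, with an adjusted p under 0.005. Of the members, 5 were called, 2 higher and 3 lower in Summer Black, which is 3.16% against 6.1% of all genes (2.38% higher and 3.72% lower). The mean of Victoria was above that of Summer Black in 116 members (73.4%), compared with 51.4% of all genes, and the median log2 fold change was -0.15 against -0.02. VIT_00s0260g00070 changed most among the called members. It had 11.9, 21.1 and 10.7 FPKM in Summer Black and 1.21, 1.44 and 1.17 in Victoria, and was higher in Summer Black by 2.72 on the log2 scale (SE 0.42, limma adjusted p = 0.000599). Its muscat values were higher and widely spread, with 33.2, 30.2 and 26.0 FPKM in Shine muscat, 89.2, 48.6 and 31.7 in Midknight Beauty and 122, 62.9 and 35.1 in Centennial Seedless. Summer Black thus lay above Victoria. The muscat group lay above both by the rule, at 26.0 against 21.1 FPKM in the closest libraries. VIT_00s0193g00160 had the same order at lower values, with 1.14 ± 0.488 FPKM in Victoria, 3.23 ± 0.553 in Summer Black and 7.03 to 10.4 in muscat libraries. It was higher in Summer Black by 1.00 (SE 0.19, limma adjusted p = 0.00266), which is right at the fold change threshold of 1.

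The opposite order was found in the 3 members that were lower in Summer Black. VIT_19s0093g00400 was listed at 0.680, 0.180 and 0.159 FPKM in Summer Black and at 3.80, 6.86 and 4.35 in Victoria (log2 fold change -2.15, SE 0.32, limma adjusted p = 0.000453), and its muscat libraries held 7.54 to 19.2. VIT_07s0005g00410 had 15.8, 6.61 and 10.9 FPKM in Summer Black, 23.6, 25.2 and 37.9 in Victoria and 38.2 to 61.9 in muscat grapes (-1.35, adjusted p = 0.00286). This call was lost in a fit of the 6 libraries alone (adjusted p = 0.0567) and without Summer Black replicate 2 (0.00916) or 3 (0.0101), Victoria replicate 2 (0.0087) or 3 (0.0134), or Shine muscat replicate 3 (0.00528). The abundant VIT_14s0060g00480 was the remaining one (-1.24, adjusted p = 0.00295). These counts were not firm. With a pseudocount of 0.1, 13 members were called, 4 higher and 9 lower in Summer Black, so that the share of members (8.23%) was above rather than below that of all genes (7.14%). Without Victoria replicate 3, 2 were called, and 3 without Victoria replicate 2 or without Shine muscat replicate 3. A fit of the 6 libraries alone called 1 (0.633%, against 1.19% of all genes). Without Shine muscat replicate 1 and Summer Black replicate 3 the only called member was VIT_00s0260g00070 (0.645%, against 3.31%).

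Differences between the muscat cultivars were also not contrasted by the selection, although it kept all 9 muscat libraries above the others, which can limit such differences. They address whether the shared expression has a common level. In the same fit, 12 members were called between Shine muscat and Midknight Beauty (7.59%, against 6.15% of all genes), 10 higher and 2 lower in Shine muscat, where all genes had 3.78% higher and 2.37% lower. Between Shine muscat and Centennial Seedless 15 were called (9.49%, against 5.69%), 10 higher and 5 lower, where all genes had 3.54% and 2.14%. Between Midknight Beauty and Centennial Seedless 3 were called (1.90%, against 3.14%), 1 higher and 2 lower in Midknight Beauty, where all genes had 1.66% and 1.48%. Whether these shares differ from those of all genes was not tested. Together 17 members were called in at least 1 of these comparisons (10.8%, against 9.88% of all genes) and 141 in none. Of the calls, 2, 4 and 1 were of genes that passed the filter only through 1 of the cultivars compared, and for these genes values are given without a test. The counts and shares above include them, and such calls were not counted among all genes. The median SE of a difference was 0.19, so a missing call does not show equal levels. The fit of all libraries shares 1 spread between cultivars and understates it where a gene is at 0 in Summer Black and Victoria. Fits of the 6 libraries of each pair called 5 members (3.16%, against 4.73% of all genes), 13 (8.23%, against 5.43%) and 1 (0.633%, against 1.07%). With a pseudocount of 0.1, 8 were called against Midknight Beauty (5.06%, against 6.52%). The share of members was thus below that of all genes for this comparison in both cases. Without Shine muscat replicate 1 and Summer Black replicate 3 the counts were 5 (3.23%, against 3.34%), 11 (7.10%, against 3.21%) and 4 (2.58%, against 2.73%). The count against Midknight Beauty fell to 6 without Shine muscat replicate 1 or replicate 3 and to 7 without Midknight Beauty replicate 3.

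**Figure D3:**
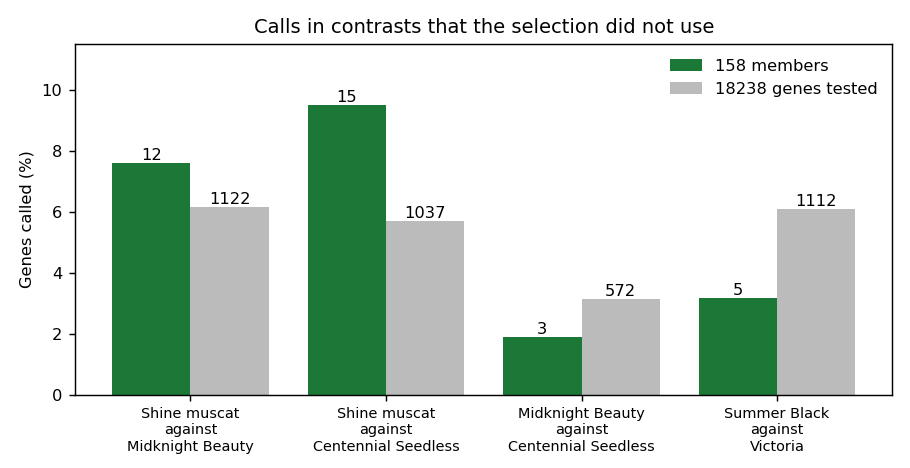
Share of genes called in the contrasts between cultivars on the same side of the selection rule. Green bars give the 158 members and grey bars all 18238 genes tested, with the number of called genes above each bar. The members lie at 7.59% and 9.49% in the Shine muscat contrasts and at 3.16% between Summer Black and Victoria. In the order of the 3 muscat contrasts, the green bars include 2, 4 and 1 genes that passed the filter only through 1 of the cultivars compared.

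Shine muscat was above both of the other muscat cultivars in 8 members (5.06%, against 1.83% of all genes), in comparisons that share its libraries, so that calls in both are not independent. The count and its share include VIT_16s0039g01220 and VIT_12s0142g00690, which passed the filter only through the Shine muscat libraries. Such genes were not taken out of the share of all genes either. VIT_06s0004g06380 showed the largest difference, with 32.9, 36.8 and 30.3 FPKM in Shine muscat against 1.68, 1.91 and 2.64 in Midknight Beauty and 1.90, 1.62 and 2.03 in Centennial Seedless. On the log2 scale it was higher by 3.49 (SE 0.26, limma adjusted p = 9.18e-07) against Midknight Beauty and 3.59 (adjusted p = 7.86e-07) against Centennial Seedless. The latter cultivars lay near Victoria, which reached 1.30 FPKM. VIT_16s0039g01220 had 16.1, 7.56 and 12 FPKM in Shine muscat and between 0.299 and 1.44 in the other muscat libraries. VIT_12s0142g00690 had 6.37, 4.73 and 4.86 FPKM in Shine muscat, 0.163, 0.863 and 0.0756 in Midknight Beauty and 0.158, 0.181 and 0.167 in Centennial Seedless. The latter pair of genes passed the filter only through the Shine muscat libraries, so their differences are a description. For all 3 genes the inclusion among the members thus rests on low values in Midknight Beauty and Centennial Seedless. The other 5 were VIT_00s0371g00100, Vitis_vinifera_newGene_1458, VIT_12s0028g02280, VIT_15s0046g03550 and VIT_12s0034g01070, with log2 fold changes of 1.18 to 2.58 over both comparisons. VIT_00s0371g00100 and VIT_12s0034g01070 did not meet the rule under at least 1 of the other scalings. Fits of the pair alone kept 4 of the 12 members called against Midknight Beauty and 12 of the 15 called against Centennial Seedless. Without Shine muscat replicate 1, 6 of the 12 and 12 of the 15 were kept.

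The reverse was found in 2 members (1.27%, against 0.718% of all genes). VIT_13s0067g02040, which was named after its values were seen, had nearly equal levels in Midknight Beauty (15.8 ± 0.615 FPKM, SD, n = 3) and Centennial Seedless (16.4 ± 0.282) and a much lower one in Shine muscat (3.89 ± 0.628). Its log2 fold changes were -1.79 (SE 0.16, limma adjusted p = 5.9e-06) and -1.84 (adjusted p = 5.04e-06). Summer Black stood at 1.48 ± 0.501 FPKM and Victoria at 0.551 ± 0.0709, so that Shine muscat was nearer to the cultivars without muscat aroma. VIT_05s0051g00180 had 1.59, 1.11 and 1.21 FPKM in Shine muscat, 4.26, 8.78 and 5.65 in Midknight Beauty and 8.70, 18.8 and 18.4 in Centennial Seedless (-1.61, adjusted p = 0.00141, and -2.76, adjusted p = 1.89e-05). VIT_05s0029g01430 had a similar order, with 0.921 ± 0.148, 7.56 ± 6.47 and 11.8 ± 5.62 FPKM, and was called against Centennial Seedless only (-2.65, adjusted p = 0.000645). Within Midknight Beauty and Centennial Seedless its replicate 2 was the highest, at 15 and 17.7 FPKM.

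Centennial Seedless was set apart in VIT_11s0016g00870, with 7.94, 8.51 and 4.47 FPKM against 0.140, 0.142 and 0.213 in Midknight Beauty. Shine muscat had 0.234, 0.215 and 0.339 FPKM and Summer Black replicate 2 had 0.136, so this gene met the rule by a margin of 1.03 times and it passed the filter only through the Centennial Seedless libraries, so that no test is given. It did not meet the rule under at least 1 of the other scalings. VIT_12s0035g00750 had 55.6, 52.8 and 47.4 FPKM in Centennial Seedless, 20.3, 14.1 and 18.0 in Midknight Beauty, 15, 12.3 and 14.7 in Shine muscat, and at most 9.37 elsewhere. Its difference between Midknight Beauty and Centennial Seedless was -1.53 (limma adjusted p = 0.00212), and the call was lost without any 1 of these 6 libraries (adjusted p = 0.00537 to 0.0116). VIT_00s1203g00010 was the third gene of this comparison, higher in Midknight Beauty by 1.11 (adjusted p = 0.000726). Its call was lost without Midknight Beauty replicate 2 (log2 fold change 0.99) and without Centennial Seedless replicate 3 (0.98), and in the fit of the 6 libraries alone (adjusted p = 0.0422). It was listed at 0 in Summer Black and Victoria, where the fit of all libraries understates the spread.

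**Figure D4:**
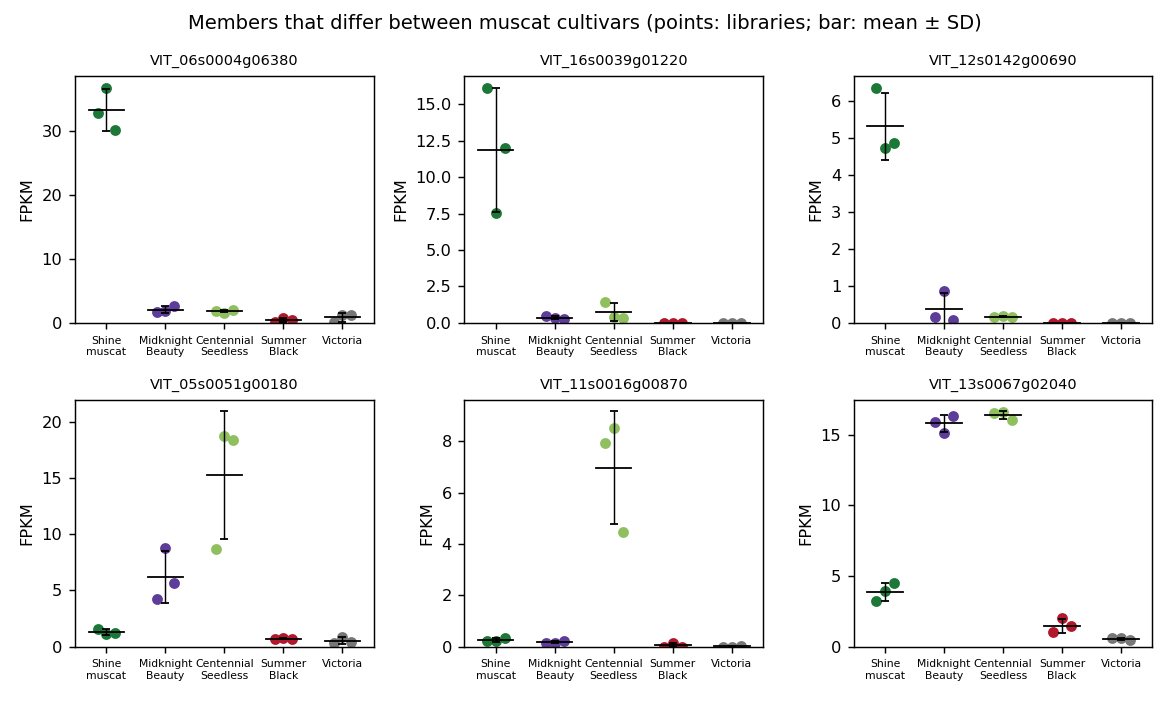
FPKM of 6 members that differed between muscat cultivars. Points are libraries, horizontal bars are means and vertical bars are SD (n = 3). In VIT_06s0004g06380, VIT_16s0039g01220 and VIT_12s0142g00690 the Shine muscat libraries lie far above all others, in VIT_11s0016g00870 those of Centennial Seedless do, and in VIT_13s0067g02040 Midknight Beauty and Centennial Seedless share a level near 16 FPKM.

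Over all members, Shine muscat had the highest muscat mean in 80 (50.6%), Centennial Seedless in 44 (27.8%) and Midknight Beauty in 34 (21.5%). Among all genes these shares were 46.3%, 26.9% and 26.8%. Centennial Seedless had the lowest muscat mean in 60 members (38.0%, against 31.1% of all genes), Midknight Beauty in 59 (37.3%, against 39.2%) and Shine muscat in 39 (24.7%, against 29.7%). The median log2 fold change of the members was 0.14 between Shine muscat and Midknight Beauty and 0.11 between Shine muscat and Centennial Seedless, and over all genes it was 0.12 and 0.10, close to those of the members. Median-of-ratios scaling moves the whole table by 0.15 and 0.10 in these comparisons.

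Replicate numbers 1, 2 and 3, which the labels call replicates and the methods assign to growth stages, had no called effect. In a limma fit with cultivar and number, 0 of 158 members and 0% of all genes had an adjusted p under 0.005, and the smallest adjusted p was 0.434. An unadjusted p under 0.05 was found for 11 members (6.96%) and for 1880 of all genes (10.3%). In some members the same replicates of Midknight Beauty and Centennial Seedless were high together, as in VIT_00s0260g00070, where replicate 1 was highest in both.

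The share of members differed between chromosomes, as read from the 150 members with a reference identifier, 15 of which lie on scaffolds not assigned to a chromosome. Members made up 2.31% of the tested genes of chromosome 12 (18 of 778), and between 0.148% (chromosome 2, 1 of 674) and 1.40% (chromosome 15, 8 of 573) on the others. On chromosome 5, which carries the DXS gene named above, 11 of 975 tested genes were members (1.13%). Genes that were lower in all muscat libraries made up 0.900% on chromosome 12, and none was found on chromosome 1, where 8 genes were higher. These shares are a description and were not tested. They hold for the deposited scaling and were not recomputed under the others. On chromosome 12, VIT_12s0057g01470, VIT_12s0059g00200 and VIT_12s0059g02460 did not meet the rule under at least 1 other scaling. The same holds for most members on the scaffold described next, and members of other chromosomes were lost as well.

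**Figure D5:**
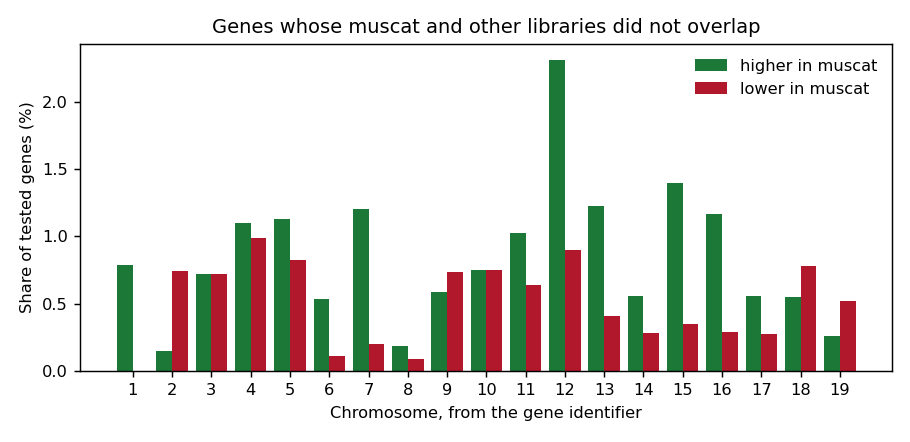
Share of the tested genes of each chromosome that were higher (green) or lower (red) in all 9 muscat libraries than in all 6 others, in percent. Chromosome 12 has the highest share of higher genes (2.31%), and chromosome 2 the lowest (0.148%). The shares were not recomputed under other scalings, under which part of the chromosome 12 members did not meet the rule.

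On chromosome 12, 8 of the members came from 1 scaffold (12s0034) with 93 tested genes, or 8.60%, and none of its genes was lower in all muscat libraries. This scaffold was singled out after its values were seen. Its members ranged from 0.933 to 36.7 FPKM in the muscat mean. VIT_12s0034g00770 had 0.995 ± 0.224 FPKM in Shine muscat, 1.77 ± 0.639 in Midknight Beauty, 2.56 ± 1.49 in Centennial Seedless, 0.277 ± 0.118 in Summer Black and 0.0679 ± 0.0600 in Victoria. VIT_12s0034g02140 was the most abundant, with 30.1 ± 4.29, 44.0 ± 4.29 and 36.1 ± 2.88 FPKM in the muscat cultivars and 23.8 ± 1.37 and 23.4 ± 2.43 in the others. VIT_12s0034g01410 differed by 0.31 on the log2 scale, and its lowest muscat library, with 10.40 FPKM in Midknight Beauty, was just above the 10.36 FPKM of the highest Summer Black library. Of the 8, VIT_12s0034g00660 and VIT_12s0034g00770 met the rule under both other scalings. VIT_12s0034g00660 no longer passed the filter when either Midknight Beauty or Centennial Seedless was set aside, nor did VIT_12s0034g02420 without Shine muscat. The scaffolds with the next highest numbers were 15s0046 (6 of 203 tested genes) and 04s0008 (6 of 459).

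Close neighbours among the members, at most 30 apart in the numbering (3 steps of the annotation), formed 7 groups with 15 members. Of the 466 tested genes within this distance of another member, 15 were members themselves (3.22%), against 0.866% of all genes. The only group of 3 was VIT_15s0046g03550, VIT_15s0046g03570 and VIT_15s0046g03590. The first had 8.89, 5.82 and 7.20 FPKM in Shine muscat, 2.60, 1.85 and 1.25 in Midknight Beauty and 3.72, 2.62 and 1.76 in Centennial Seedless, and was listed at 0 in Summer Black and at most at 0.418 in Victoria. The second was the abundant gene given above. The third had 60.3 ± 4.94, 40.8 ± 5.30 and 40.3 ± 4.89 FPKM in the muscat cultivars, 25.5 ± 4.71 in Summer Black and 30.3 ± 2.58 in Victoria. All 3 had their highest mean in Shine muscat. VIT_15s0046g03670, further along the scaffold, did so as well, with 29.3 ± 3.88 FPKM in Shine muscat and 12.4 ± 0.839 in Summer Black.

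Of the aroma genes that the study names with an identifier, 19 were considered, and all of them passed the filter. They were chosen in the study on these libraries. None of the 19 was a member, and 1 TPS, VIT_13s0084g00010, was lower in all muscat libraries than in all others. The muscat libraries lay above all Victoria libraries in 7 of the 19 and above all Summer Black libraries in 2. The matching shares over all genes were not computed, so these counts cannot be called high or low. VvDXS (VIT_05s0020g02130) came closest to the rule. Its muscat libraries started at 29.9 FPKM in Midknight Beauty replicate 1, whereas Summer Black had 34.5, 24.7 and 22.9 FPKM and Victoria 16.3, 16.2 and 23.2, so that 1 Summer Black library overlapped the muscat range. Shine muscat, with 88.7, 71.4 and 86.2 FPKM, exceeded Midknight Beauty by 1.33 (SE 0.16, limma adjusted p = 0.000101) and Centennial Seedless by 1.15 (adjusted p = 0.000337). Midknight Beauty and Centennial Seedless differed by -0.18 (SE 0.16, adjusted p = 0.583). On the same scaffold as VvDXS (05s0020), 4 of 340 tested genes were members, among them the abundant VIT_05s0020g02540 with 193 to 276 FPKM in muscat and 126 to 183 in other libraries.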

How the data were processed

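Skin RNA of 5 cultivars was measured in 15 libraries, 3 per cultivar. The authors deposited FPKM per gene, without read counts. The labels list HISAT2 and StringTie, and the methods name Bowtie2 and RSEM on the 12X grape genome. Library sums were 718652 to 786207 FPKM. The study lists reads per library, but no counts per gene are used here, so no counting interval is given for a value.

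Tests used log2(FPKM + 1), a scale that understates changes of low genes. Genes with at least 1 FPKM in at least 3 libraries were fitted with limma 3.58.1 (R 4.3.3, trended variance, all 5 cultivars), adjusted by Benjamini-Hochberg. The thresholds are those of the methods, an adjusted p under 0.005 and a log2 difference of 1 or more. The results section of the study uses 2 and 0.01, which were tried as an alternative. Other steps used Python 3.11.15 and pandas 2.3.3, and the fits were tested on simulated data. Libraries were named and grouped by their labels. Alternatives were the pseudocount, the filter, the scaling, the variance trend, the thresholds, the libraries in the fit, a replicate block and each library left out. A fit without the 2 libraries of low mapped share was added after seeing the data.

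Replicate numbers were checked by correlating deviations from the cultivar mean. Between Midknight Beauty and Centennial Seedless all 3 numbers correlated (r = 0.59, 0.60 and 0.22). Libraries of unlike numbers correlated as well, such as Centennial Seedless replicate 1 with a Summer Black library of another number (r = 0.49). Whether the numbers pair libraries was not tested. The printed values are from the fit without a block. With the number as a block, the same 3 members were called between Midknight Beauty and Centennial Seedless. Over all 30 pairs of cultivars and numbers, r exceeded 0.1 in 13, and the same number had the highest r in 15.

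Genes were named when they were among the 10 most abundant members, the 10 with the widest gap, the 3 with the largest called difference per contrast, the group of 3 neighbours, or the 3 just inside and outside the rule. Gene groups by function and cell type markers were not analysed because the identifiers carry no names. A few other genes were named after their values were seen. The members and lists were chosen with earlier results of these data known. One gene that met the rule is not reported here.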

Additional observations from a re-analysis of the deposited data

How the results depend on the processing

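Under other filters or scalings the number of genes meeting the rule was 112 to 179, and with 1 library left out it was 158 to 270, the highest without Victoria replicate 3. With the thresholds of 2 and 0.01, the called members were 3 between Shine muscat and Midknight Beauty (1.90%, against 2.10% of all genes), 8 between Shine muscat and Centennial Seedless (5.06%, against 2.24%), 1 between Midknight Beauty and Centennial Seedless (0.633%, against 1.29%) and 2 between Summer Black and Victoria (1.27%, against 2.45%). Fits of the 6 libraries of a pair called 5, 13, 1 and 1. With a pseudocount of 0.1, 13 members were called between Summer Black and Victoria. Leaving out 1 library gave 6 to 13 calls in the first comparison, 12 to 16 in the second, 0 to 4 in the third and 2 to 6 in the fourth, and 0 for the replicate number. Without Centennial Seedless replicate 3, where the third comparison had 0, 1 of its 3 genes no longer passed the filter and was not tested. Without both Shine muscat replicate 1 and Summer Black replicate 3 the counts were 5, 11, 4 and 1, a choice made after seeing the data. The cause of these shifts was not tested, other than that fewer libraries enter such fits. With the replicate number as a block the counts were 12, 15, 3 and 5. In the first comparison 11 of the 12 genes were the same, with 9 higher and 3 lower, and in the others all were the same. Of the values given for named genes under alternatives, 281 kept their direction and their side of the thresholds, 22 fell short of a threshold and 0 reversed. Without read counts, low FPKM have an unknown counting error.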
